A study of Mus musculus with 12 samples.

Results

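The genes described here are 40 genes of the lysosome and of autophagy, taken by gene symbol from the 25745 genes of a table of RNA levels in cultured mouse aortic smooth muscle cells. They fall into 5 roles: 13 lysosomal hydrolases, 8 lysosomal membrane and cargo proteins, 4 subunits of the lysosomal proton pump, 2 transcription factors and 13 autophagy genes. All 40 were found in the table, and all 40 had a mean level of at least 1 FPKM, the floor for testing (FPKM, fragments scaled to gene length and to the library's total, is a level per length). The study asked whether αKlotho, a kidney and circulating protein that lowers phosphate in the body, changes smooth muscle cells that are made to calcify.

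The cells were primary vascular smooth muscle cells from aortas of wild-type C57BL/6J mice aged 5 to 6 weeks, grown out of tissue pieces after the inner and outer layers were stripped, and used at passages 5 to 8. There were 4 groups of 3 libraries. The LV-Klotho group was in calcification medium with an αKlotho lentivirus, the LV-Vector group in calcification medium with an empty lentivirus, the calcification group in that medium with no virus named, and the control group in basal medium. Calcification medium held 3.0 mM sodium phosphate and was given for 7 days. The labels do not say whether the calcification and control cells received any virus, whether the replicates are separate cultures or animals, or what the replicate numbers 1 to 3 mark. The p-values therefore measure the spread between these libraries, which may be technical.

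Lysosomes are acid compartments in which hydrolases break down proteins, lipids and sugar chains. A membrane pump, the V-ATPase, makes them acid, and heavily glycosylated membrane proteins line them. Macroautophagy delivers cytoplasm to them: the Ulk1 kinase complex and the Beclin 1 lipid kinase complex start a membrane sac, conjugation enzymes such as Atg5 and Atg7 attach LC3 and GABARAP proteins to it, and receptors such as p62 (gene Sqstm1) bring cargo. The transcription factors TFEB and TFE3 drive many lysosomal and autophagy genes through promoter elements built on an E-box. In smooth muscle, autophagy is known for taking part in the switch away from the contractile state and in the response to phosphate.

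That promoter element could be looked for in the genes measured. Promoter windows of 300 bases, from 250 before to 50 after the gene start, were taken from RefSeq on GRCm38.p6 and matched 34 of the 40 members. Atp6v1b2, Atp6v1h, Becn1, Ctsb, Map1lc3a and Npc1 had no window. The 8-letter palindrome TCACGTGA, the same on both strands, was in the windows of 6 members (17.6%). It was in windows of 1.12% of all 27025 windowed genes and of 2.48% of the windowed genes tested here. These 6 were the hydrolases Ctsa, Ctsd and Gla, the calcium channel gene Mcoln1, and the pump subunits Atp6v0d1 and Atp6v1a, and none of the 11 windowed autophagy genes held it. Its 6-letter core CACGTG, which lies within every TCACGTGA, was in windows of 11 of the 34 members (32.4%), against 8.09% of all windowed genes and 12.41% of those tested. A match is a description, not a site, and its relation to differences in RNA was not tested. Ctsd, Mcoln1, Atp6v0d1 and Atp6v1a, which hold TCACGTGA, did not pass the test between replicate numbers given below. The windows of 3 members that the results below return to are shown 5′ to 3′ on the gene's strand, with TCACGTGA in capitals: Gla (chrX:134600956-134601255, minus strand, 2 matches) and Ctsa (chr2:164833523-164833822, plus strand, 2 matches), whose RNA differed between replicate numbers, and Atp6v1a (chr16:44139210-44139509, minus strand, 1 match), whose RNA was lowest in the LV-Vector libraries.
Gla: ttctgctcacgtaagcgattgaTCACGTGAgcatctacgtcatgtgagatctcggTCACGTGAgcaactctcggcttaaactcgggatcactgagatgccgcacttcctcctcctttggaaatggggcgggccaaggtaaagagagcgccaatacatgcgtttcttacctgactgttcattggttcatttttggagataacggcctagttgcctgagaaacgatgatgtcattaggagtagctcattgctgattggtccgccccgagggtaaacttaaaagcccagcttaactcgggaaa
Ctsa: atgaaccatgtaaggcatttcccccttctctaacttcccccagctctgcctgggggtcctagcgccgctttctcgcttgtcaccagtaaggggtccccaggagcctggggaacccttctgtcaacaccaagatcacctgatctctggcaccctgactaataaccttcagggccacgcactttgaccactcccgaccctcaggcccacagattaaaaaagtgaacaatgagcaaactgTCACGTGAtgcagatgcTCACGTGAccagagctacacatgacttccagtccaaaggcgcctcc
Atp6v1a: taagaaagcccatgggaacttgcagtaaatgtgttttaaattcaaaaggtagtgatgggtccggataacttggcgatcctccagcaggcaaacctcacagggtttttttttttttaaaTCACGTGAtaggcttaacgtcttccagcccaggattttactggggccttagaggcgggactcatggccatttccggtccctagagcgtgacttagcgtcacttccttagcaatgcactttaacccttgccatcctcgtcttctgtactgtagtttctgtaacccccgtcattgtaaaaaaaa

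Depth, estimated from the values themselves, was between 16649000 and 20007000 fragments per library. The αKlotho gene Kl had 1 fragment in replicate 3 of the LV-Klotho group and was at 0 elsewhere, where 3 fragments would have been 0.0193 FPKM or less. That group is therefore called the libraries labelled LV-Klotho, and every direction for it rests on the label. The cells carried smooth muscle markers, but the summed level of 10 such markers was between 199.1 and 352.5 FPKM in the replicates numbered 1 of the 4 groups, against 787.5 to 1362 FPKM in the replicates numbered 2 and 3. Calls of members are therefore also given without the replicates numbered 1. That fit keeps only replicates 2 and 3 of each group, and the share of all genes it called is not given.

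The lysosomal members held the highest levels of the 40. Over the 12 libraries, Psap, which encodes the precursor of the saposins that help hydrolases reach lipids, averaged 846 FPKM. Ctsd, the aspartic protease cathepsin D, averaged 832 FPKM, and Lamp1, a major lysosomal membrane glycoprotein, averaged 791 FPKM. The autophagy members were all below these genes, from 6.22 FPKM for Atg9a, the lipid scramblase of the young membrane, to 269.5 FPKM for Sqstm1 and 282 FPKM for Gabarap. Some lysosomal members were low as well, such as Npc1 with a mean of 9.02 FPKM. Of the transcription factors, Tfeb was the lowest of the 40, at 2.0 FPKM, and Tfe3 averaged 7.74 FPKM, above Atg9a.

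**Figure D1:**
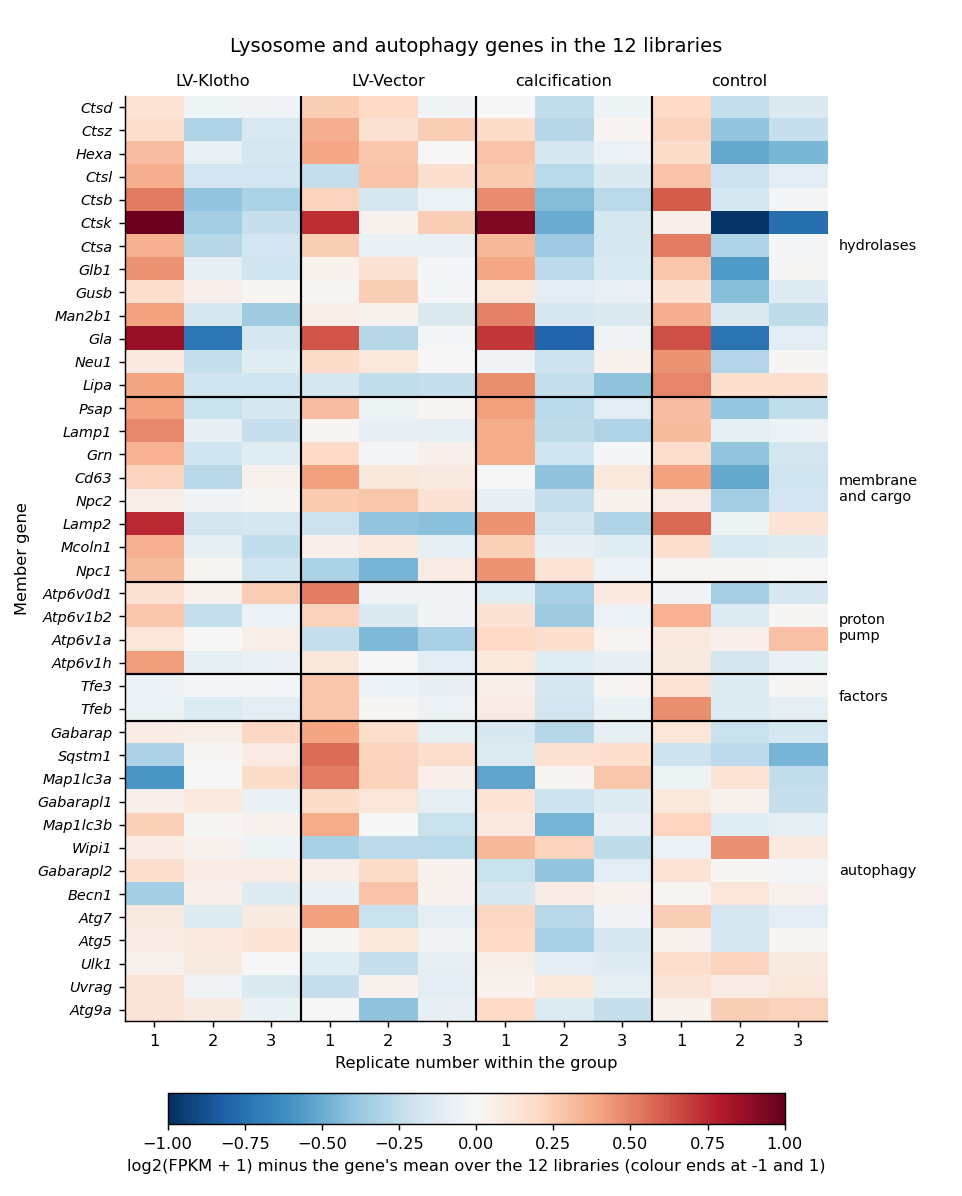
Level of each of the 40 members (rows, by role) in each of the 12 libraries (columns, by group and replicate number), as log2(FPKM + 1) minus the gene's mean over the 12 libraries. Red is above and blue below that mean; among the hydrolases and membrane proteins the first column of each group is mostly red, which the autophagy rows show less.

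In the calcification group every library held more Sqstm1 RNA and less Gabarapl2 and Ulk1 RNA than every control library, but these differences did not pass the test over all genes. Of all genes tested, 9.19% were higher and 5.52% lower without overlap, so the 40 members did not separate more often than all genes. Against control, none of the 40 members passed the test (limma on log2(FPKM + 1), adjusted p under 0.05 over 10758 genes), where 0.706% of all genes tested did. At an unadjusted p under 0.05 there were 3 members, where 11.5% of all genes were, and limma-voom on recovered fragments also called 0, where it called 0.596% of all genes. Without the replicates numbered 1 the count was also 0. The 13 hydrolases had a median log2 difference of 0.03, with 7 positive and 6 negative, and the 8 membrane and cargo proteins a median of 0.06. The 13 autophagy genes had a median of -0.07, with 1 positive and 12 negative. Over the alternative fits described below, 1 to 5 of them were positive, with medians from -0.16 to -0.04. The median over all genes tested was 0.04.

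Sqstm1 (chromosome 11, 50090193 to 50101654, as the table gives positions, with no build stated), the gene of the cargo receptor p62, was the autophagy member with the positive difference. Its levels were 240.5, 294 and 297 FPKM in calcification replicates 1, 2 and 3, against 229, 221 and 192 FPKM in control replicates. Every calcification library was above every control library, with a log2 difference of 0.37 ± 0.16 (SE, n = 3 each, unadjusted p = 0.0436, adjusted p = 0.417 by limma). Of the 40 members, 1 was higher without overlap in this comparison, where 9.19% of all genes were.

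Gabarapl2 (chromosome 8, 112667335 to 112680244), a member of the LC3 and GABARAP family that coats autophagosomes, had its lowest levels in the calcification group. It stood at 22.9, 20.2 and 24.9 FPKM in calcification libraries and at 29.7, 27.2 and 26.5 FPKM in control libraries, with no overlap (log2 -0.29 ± 0.11, n = 3 each, adjusted p = 0.318 by limma). Ulk1, the kinase that starts autophagy, averaged 8.79 ± 0.699 FPKM in calcification libraries and 10.4 ± 0.529 FPKM in control libraries (SD, n = 3 each; log2 -0.22 ± 0.10, adjusted p = 0.428). These were the 2 members lower without overlap, where 5.52% of all genes were.

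Ctsk (chromosome 3, 95406567 to 95416673), which encodes cathepsin K, the collagen-degrading protease best known from bone-resorbing osteoclasts, had the largest difference of the 40. Its levels were 343, 127 and 159 FPKM in calcification replicates 1, 2 and 3, against 186, 90.4 and 106 FPKM in control replicates. Replicate 1 was the highest in both groups, and the groups overlapped, but the calcification library was above the control library of the same number in all 3 pairs. The log2 difference was 0.65 ± 0.43 (SE, n = 3 each, adjusted p = 0.619 by limma). With the replicate number as a block the error was 0.148 and Ctsk was called, at adjusted p = 0.0365, as the 1 member of 40 that passed, where 3.91% of all genes did. With the block kept and trends with GC content and length removed, the difference was 0.58 and the call was lost (adjusted p = 0.0537). Without the replicates numbered 1 it was 0.53 (adjusted p = 0.157).

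Other osteoclast markers, Acp5 apart, were low. Of the 8 genes on the osteoclast list, which leaves out Ctsk, 7 averaged under 1 FPKM, with Calcr, Dcstamp, Ocstamp and Mmp9 at 0.0802 FPKM or less in every library. The exception was Acp5, the tartrate-resistant acid phosphatase, at 8.98, 4.85 and 3.66 FPKM in calcification libraries and 2.16, 0.995 and 1.03 FPKM in control libraries.

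**Figure D2:**
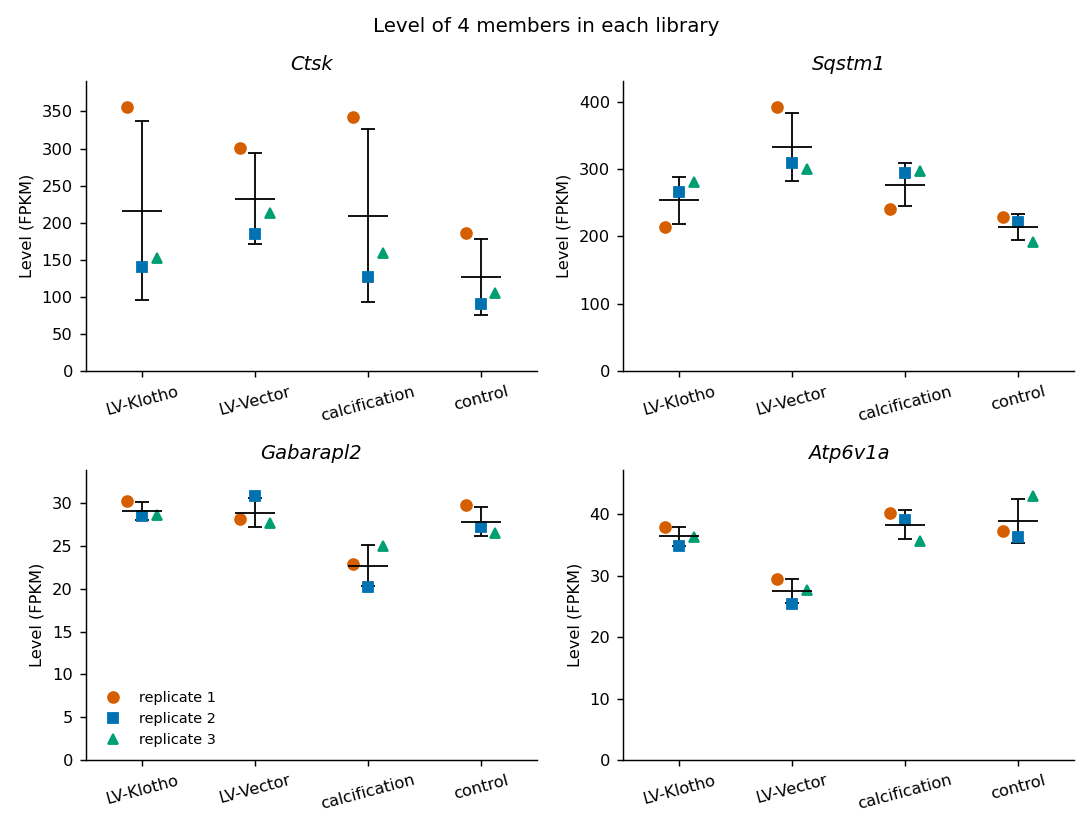
Level (FPKM, axis from 0) of Ctsk, Sqstm1, Gabarapl2 and Atp6v1a in each library of the 4 groups, with replicate numbers as symbols; black lines are group means with SD (n = 3). Ctsk is lower in control at each replicate number, Gabarapl2 is lowest in the calcification group and Atp6v1a in the LV-Vector group.

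The 3 groups in calcification medium were then set against control, a comparison that reuses the libraries above. Again 0 of 40 members passed (limma), where 4.38% of all genes tested did. There were 3 members at an unadjusted p under 0.05, where 26.1% of all genes were, and limma-voom called 0, where it called 3.78% of all genes. Of the 40, 0 were higher without overlap, where 4.16% of all genes were, and 1 (Ulk1) was lower, where 2.78% were. Ctsk was at 355, 141 and 153 FPKM in the libraries labelled LV-Klotho and at 301, 184 and 213 FPKM in LV-Vector libraries, so that control was the lowest group at each of the 3 replicate numbers. Its log2 difference from control was 0.75 ± 0.35 (adjusted p = 0.199), and with the block 0.75 ± 0.121 (adjusted p = 0.00342). Without the replicates numbered 1 it was 0.71 (adjusted p = 0.0255), in a fit for which the share of all genes called is not given.

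Hexa (chromosome 9, 59446823 to 59472392), the α subunit of the β-hexosaminidase that degrades gangliosides, was also lowest in control at each replicate number. It stood at 332, 254 and 237 FPKM in the libraries labelled LV-Klotho, 349.8, 326 and 269 FPKM in LV-Vector, 326, 238 and 257 FPKM in calcification and 304, 188 and 195 FPKM in control. The log2 difference of all calcification media from control was 0.35 ± 0.18 (adjusted p = 0.227), and adjusted p = 0.0437 with the block, which called 2 members, Ctsk and Hexa, where 16.0% of all genes passed. After removal of trends with GC content and length, with the block kept, the difference for Hexa was 0.15 (adjusted p = 0.271) and that for Ctsk 0.62 (adjusted p = 0.00859).

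Sqstm1 had the smallest unadjusted p among the members in this comparison. It was at 214, 266 and 280.3 FPKM in the libraries labelled LV-Klotho and at 391, 309 and 299 FPKM in LV-Vector libraries, so replicate 1 labelled LV-Klotho lay within the control range and the other calcification-medium libraries lay above it. The log2 difference was 0.41 ± 0.13 (unadjusted p = 0.00948, adjusted p = 0.0886 by limma, 0.0550 with the block). Without the replicates numbered 1 it was called, at 0.49 (adjusted p = 0.0367), and so was Lipa.

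Ulk1 was the member lower without overlap, though replicate 2 labelled LV-Klotho nearly tied with control replicate 3. It was at 9.50, 9.846 and 9.19 FPKM in the libraries labelled LV-Klotho, 8.36, 7.69 and 8.55 FPKM in LV-Vector, 9.6, 8.455 and 8.33 FPKM in calcification and 10.5, 10.9 and 9.852 FPKM in control. The log2 difference of all calcification media from control was -0.22 ± 0.08 (adjusted p = 0.127 by limma, 0.0907 with the block). With both the block and the GC and length removal it was called, at -0.28 (adjusted p = 0.0279). The share of all genes called in that fit is not given.

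Lipa encodes the acid lipase that frees cholesterol and fatty acids. Its levels were 21.3, 13.8 and 13.8 FPKM in the libraries labelled LV-Klotho, 14.2, 13.3 and 13.5 FPKM in LV-Vector, 22.5, 13.4 and 11.9 FPKM in calcification and 22.9, 18.0 and 18.0 FPKM in control. Control was the highest group at each replicate number. The log2 difference of all calcification media from control was -0.36 ± 0.18 (adjusted p = 0.227), and -0.41 (adjusted p = 0.0432) without the replicates numbered 1. For the latter fit the share of all genes called is not given.

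Genes of the same organelles outside the 40 were read from lists of the pathway. In all calcification media against control, where 4.38% of all genes passed, 1 of 34 other hydrolases and activators rose (Acp5, log2 1.44 ± 0.30, adjusted p = 0.0263), and 1 of 13 other pump subunits rose (Atp6v1d, a subunit of the pump's central stalk, 0.65 ± 0.10, adjusted p = 0.00513). Of 38 other autophagy genes, 3 fell and none rose: Bnip3 (-1.07 ± 0.22, adjusted p = 0.0257) and Bnip3l (-0.55 ± 0.11, adjusted p = 0.0260), which are mitophagy receptors that low oxygen induces, and Rb1cc1 (-0.52 ± 0.13, adjusted p = 0.0467), the scaffold of the Ulk1 complex. After removal of GC and length trends Acp5 (adjusted p = 0.0565) and Rb1cc1 (-0.29, adjusted p = 0.117) were not called. None of 15 other lysosomal membrane proteins, 18 genes of lysosomal signalling and TFEB control or 6 sorting genes passed. With the replicate number as a block, which called 16.0% of all genes, the counts were 3 of 34 hydrolases and activators, 4 of 15 membrane proteins, 1 of 13 pump subunits, 5 of 38 autophagy genes, 1 of 18 signalling genes and 1 of 6 sorting genes. In calcification against control none of these genes passed without the block, and 6 did with it, where 3.91% of all genes did: Acp5, Atp6v1d and Nagpa were higher, and Bnip3, Bnip3l and Rb1cc1 lower.

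Some markers of other cell types also passed the test between all calcification media and control, where 4.38% of all genes tested did. Of 9 macrophage markers tested, 1 was higher (Csf1r, log2 0.56, adjusted p = 0.0380, and 0.0548 after that removal) and none lower. The 14 macrophage markers summed to 37.34 to 102.8 FPKM in the libraries labelled LV-Klotho, 40.07 to 131.7 FPKM in LV-Vector, 35.02 to 106.4 FPKM in calcification and 35.52 to 166.8 FPKM in control, and Ptprc was at 0.0631 FPKM or less in every library. Of 8 adventitial fibroblast markers tested, Ly6a was higher (0.90, adjusted p = 0.0444) and the collagen gene Col14a1 lower (-2.01 ± 0.29, adjusted p = 0.00421). The 10 fibroblast markers summed to 1117 to 1860 FPKM in the libraries labelled LV-Klotho, 1238 to 1484 FPKM in LV-Vector, 797.1 to 1487 FPKM in calcification and 738 to 1042 FPKM in control. The part of these markers in the differences of the members was not tested.

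The libraries labelled LV-Klotho were set against LV-Vector, the comparison that bears on αKlotho. None of the 40 members passed (limma), where 0% of all genes tested did. There were 2 members at an unadjusted p under 0.05, where 14.1% of all genes were, and limma-voom called 0 members and 0 genes. With the replicate number as a block 0 members and 0.102% of all genes passed. The hydrolases had a median log2 difference of -0.08, with 12 of 13 negative, and 8 of 13 negative after removal of GC and length trends. The autophagy genes had a median of 0.01, and all genes -0.01. Members without overlap were 4 higher (Lamp2, Atp6v1a, Ulk1 and Wipi1), where 11.3% of all genes were, and 3 lower (Npc2, Tfeb and Sqstm1), where 10.4% were.

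Atp6v1a (chromosome 16, 43905765 to 43960068 in the table), the catalytic A subunit of the pump, had the smallest p. Its levels were 38.0, 34.8 and 36.4 FPKM in the libraries labelled LV-Klotho and 29.4, 25.5 and 27.7 FPKM in LV-Vector libraries. Calcification libraries held 40.2, 39.1 and 35.6 FPKM and control libraries 37.3, 36.3 and 43.0 FPKM, so the LV-Vector group lay below the other 9 libraries. The log2 difference between the label LV-Klotho and LV-Vector was 0.39 ± 0.11 (n = 3 each, unadjusted p = 0.00378, adjusted p = 0.226 by limma), and that between LV-Vector and calcification -0.46 ± 0.11 (adjusted p = 0.288). In both, the differences of all genes went with GC content (correlations across genes of -0.544 and 0.416) and with length (0.42 and -0.536), and after removal of those trends Atp6v1a had 0.23 and -0.28 (adjusted p = 0.687 and 0.657).

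Lamp2, whose protein lines the lysosome and takes part in autophagosome fusion, was lowest in LV-Vector as well. It stood at 74.5, 38.5 and 38.5 FPKM in the libraries labelled LV-Klotho, 37.6, 33.0 and 32.5 FPKM in LV-Vector, 60.2, 38.3 and 35.4 FPKM in calcification and 65.1, 42.3 and 48.3 FPKM in control. Between the label LV-Klotho and LV-Vector the log2 difference was 0.47 ± 0.27 (adjusted p = 0.434), and 0.10 after the GC and length removal. Sqstm1 went the other way, with no overlap between the groups (log2 -0.39 ± 0.16, unadjusted p = 0.0336, adjusted p = 0.317), and -0.26 after that removal.

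The transcription factors did not pass in any treatment comparison. Tfeb was at 1.85, 1.71 and 1.77 FPKM in the libraries labelled LV-Klotho, 2.61, 1.99 and 1.86 FPKM in LV-Vector, 2.14, 1.60 and 1.84 FPKM in calcification and 3.11, 1.70 and 1.8 FPKM in control. Tfe3 was at 7.38, 7.62 and 7.60 FPKM in the libraries labelled LV-Klotho, 9.56, 7.38 and 7.21 FPKM in LV-Vector, 8.09, 6.80 and 7.91 FPKM in calcification and 8.60, 6.97 and 7.81 FPKM in control. Tfeb had its highest level in replicate 1 of each group, and Tfe3 in 3 of the 4. For Tfeb the log2 difference between the label LV-Klotho and LV-Vector was -0.18, with a 95% interval of -0.54 to 0.19, and that between calcification and control -0.14, with an interval of -0.51 to 0.23. These are RNA levels and do not show where the proteins were in the cell.

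**Figure D3:**
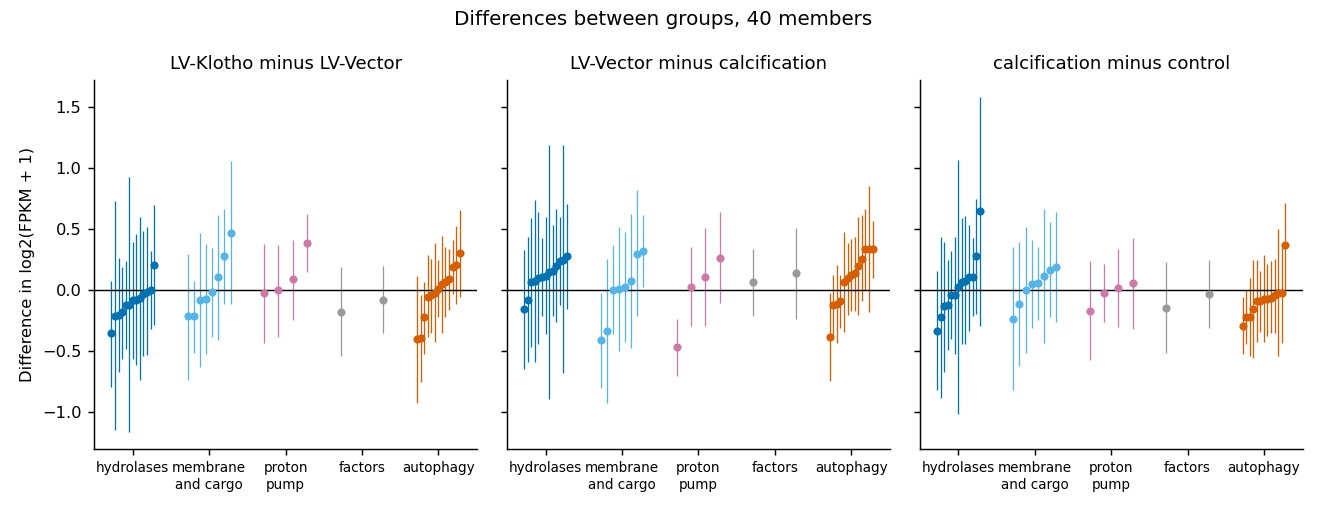
Difference in log2(FPKM + 1) of each of the 40 members, by role, in 3 comparisons; bars are 95% intervals from limma. No member passes the adjusted threshold in these comparisons, and the widest intervals are those of hydrolases, such as Ctsk.

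LV-Vector was set against calcification, whose labels name no virus. None of the 40 members passed (limma), where 0% of all genes tested did, 6 had an unadjusted p under 0.05, where 14.1% of all genes did, and limma-voom called 0. The 6 were Atp6v1a, Wipi1 and Npc1, which were lower in LV-Vector, and Gabarapl2, Npc2 and Gabarap, which were higher. Members without overlap were 3 higher in LV-Vector (Npc2, Sqstm1 and Gabarapl2), where 6.11% of all genes were, and 2 lower (Atp6v1a and Wipi1), where 11.3% were. Npc2 and Npc1 encode the pair of proteins that pass cholesterol out of the lysosome. Npc2 had 229, 232 and 211 FPKM in LV-Vector libraries, against 179.7, 163 and 196 FPKM in calcification libraries (log2 0.32 ± 0.14, adjusted p = 0.337). Npc1 had 6.93, 6.17 and 9.49 FPKM in LV-Vector libraries, against 12.5, 9.88 and 8.49 FPKM in calcification libraries (-0.41 ± 0.18, adjusted p = 0.346). LV-Vector held the highest Npc2 of the 4 groups at each replicate number, since the libraries labelled LV-Klotho had 199, 187 and 193 FPKM and control libraries 202, 149.8 and 167 FPKM. Npc1 was at 11.3, 9.06 and 7.60 FPKM in the libraries labelled LV-Klotho and 9.05, 8.94 and 8.86 FPKM in control libraries. After the GC and length removal the difference of Npc1 was -0.12, and that of Npc2 0.41.

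Gabarap and Gabarapl2 had higher mean levels in both lentivirus groups than in the calcification group. Gabarap was at 293, 290.2 and 323 FPKM in the libraries labelled LV-Klotho, 367, 315 and 262 FPKM in LV-Vector, 249.7, 229 and 263 FPKM in calcification and 303, 239.5 and 247 FPKM in control. Gabarapl2 was at 30.3, 28.4 and 28.6 FPKM in the libraries labelled LV-Klotho and 28.2, 30.8 and 27.7 FPKM in LV-Vector, above the calcification libraries without overlap. For Gabarapl2 the log2 difference from calcification was 0.35 ± 0.11 with the label LV-Klotho (unadjusted p = 0.00731, adjusted p = 1.00 by limma) and 0.34 ± 0.11 with LV-Vector (adjusted p = 0.298), and these share the calcification libraries. In the label LV-Klotho against calcification none of the 40 members passed (limma), where 0% of all genes did, 1 (Gabarapl2) had an unadjusted p under 0.05, where 3.13% did, and limma-voom called 0. Members without overlap were 2 higher (Gabarap and Gabarapl2), where 3.20% of all genes were, and 0 lower, where 4.26% were. Over all 4 groups together 0 members passed (limma), where 1.00% of all genes did. There were 4 at an unadjusted p under 0.05, where 23.4% of all genes were, and 0 by limma-voom, which called 1.08% of all genes. With the block 2 passed, Ctsk (adjusted p = 0.0166) and Atp6v1a (adjusted p = 0.0337), where 10.1% of all genes did. Replicate 3 of LV-Vector did not pair with that of LV-Klotho or calcification (correlations across genes 0.006 and -0.063), while replicates 1 and 2 did (0.294 to 0.522). Atp6v1a was not called with the block once GC and length trends were removed.

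The members that have not been given library by library also did not pass in any treatment comparison under any setting run. Wipi1, which binds the lipid made by the Beclin 1 complex, averaged 30.7 ± 0.733 FPKM in LV-Vector libraries and 40.9 ± 8.33 FPKM in calcification libraries (SD, n = 3 each; adjusted p = 0.341). Map1lc3a, an LC3 gene, ranged from 66.4 to 143 FPKM over the 12 libraries, both extremes in replicates numbered 1. Gabarapl1 ranged from 77.9 to 104 FPKM, Atg5 from 8.15 to 12.2 FPKM, Uvrag, a Beclin 1 partner, from 6.90 to 9.18 FPKM and Atg9a from 4.40 to 7.48 FPKM. Becn1, the Beclin 1 gene, was at 10.1, 13.6 and 11.9 FPKM in the libraries labelled LV-Klotho, 12.4, 16.2 and 13.4 FPKM in LV-Vector, 11.6, 13.9 and 13.5 FPKM in calcification and 13.3, 14.3 and 13.5 FPKM in control, so that its replicate 1 was the lowest in each group.

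Some of the lysosomal members, 13 of 27, differed along the replicate number, which runs across all treatments. In a fit with group and replicate number, 14 of the 40 members differed between replicate numbers (limma F test, adjusted p under 0.05), where 12.4% of all genes tested did. All 14 were higher in replicate 1, where 6.28% of all genes tested were called higher and 6.13% lower. By role they were 8 of 13 hydrolases, 4 of 8 membrane and cargo proteins, 1 of 4 pump subunits, 0 of 2 transcription factors and 1 of 13 autophagy genes. The 27 lysosomal members, transcription factors included, were all positive, with a median log2 difference between replicate 1 and replicates 2 and 3 of 0.37, while the autophagy genes had a median of 0.06 and all genes tested -0.01. At an unadjusted p under 0.05 there were 22 members, where 25.9% of all genes were, and limma-voom called 15, where it called 14.1%. With no filter on low values 6 were called (Gla, Ctsk, Ctsb, Ctsa, Man2b1 and Atp6v1b2), and Hexa, Lipa, Ctsz, Lamp1, Lamp2, Psap, Grn and Atg7 were not. Leaving out a library gave 6 without calcification replicate 1, 7 without replicate 1 of LV-Klotho or control, 8 without replicate 2 of LV-Klotho, calcification or control, and 9 without control replicate 3, and 10 to 16 for the others. In replicates 2 and 3 alone 1 of the 40, Gla, differed between the numbers. For the fits without the filter or with fewer libraries, the share of all genes called is not given. Whether the members changed in step with all genes there cannot be read from these counts. The labels do not say what the number marks, and replicate 1 was set apart with its low smooth muscle markers already known.

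**Figure D4:**
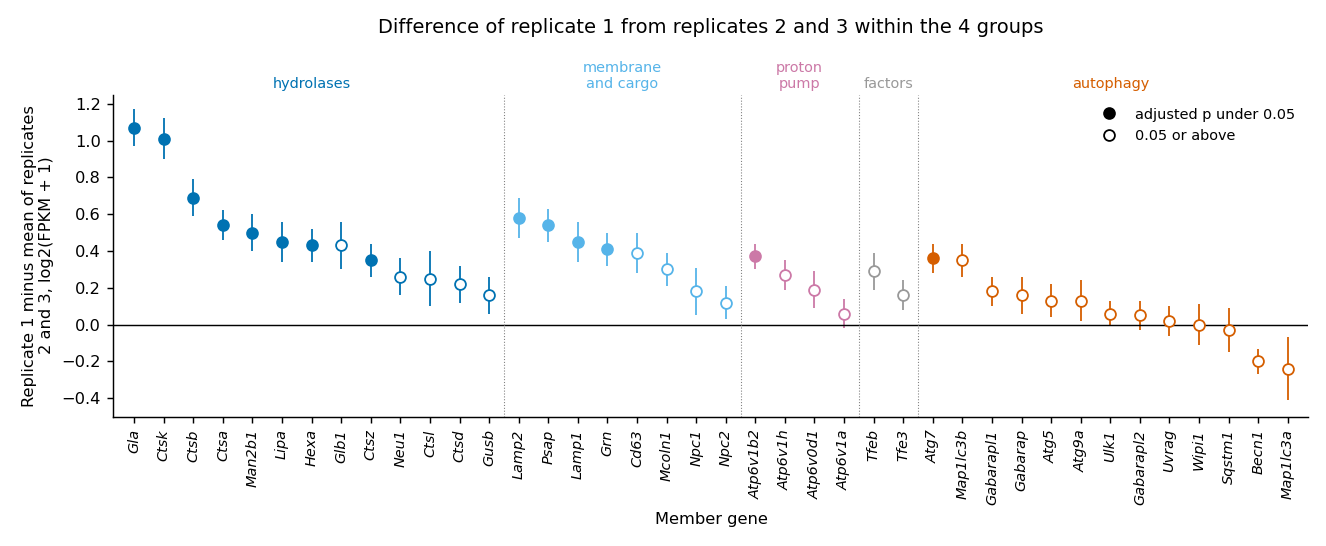
Difference between replicate 1 and the mean of replicates 2 and 3, in log2(FPKM + 1) within the 4 groups, for the 40 members by role; bars are standard errors and filled points have an adjusted p under 0.05 for replicate number. The hydrolases and the membrane and cargo proteins all lie above 0, and the autophagy genes lie on both sides.

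Gla (chromosome X, 133488898 to 133501874 in the table), the α-galactosidase A that clears globotriaosylceramide, had the largest such difference. Its levels in replicates 1, 2 and 3 were 34.7, 10.8 and 16.4 FPKM in the libraries labelled LV-Klotho, 29.2, 15 and 18.4 FPKM in LV-Vector, 30.9, 10.3 and 18.0 FPKM in calcification and 29.6, 10.7 and 17.1 FPKM in control. In each group replicate 1 was the highest and replicate 2 the lowest, and group means lay between 19.1 and 20.9 FPKM. The log2 difference of replicate 1 was 1.07 ± 0.10 (SE, adjusted p = 1.16e-04). Ctsk had 1.01 ± 0.11 (adjusted p = 5.07e-04), with 186 to 355 FPKM in the replicates numbered 1, against 90.4 to 213 FPKM in the others.

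Among the cathepsins, Ctsb and Ctsa had all 4 replicates numbered 1 above the other 8 libraries. Ctsb, the cysteine protease cathepsin B, was at 332, 175 and 185 FPKM in the libraries labelled LV-Klotho, 270.3, 205 and 222 FPKM in LV-Vector, 322, 171 and 191 FPKM in calcification and 353, 205 and 229 FPKM in control (log2 0.69 ± 0.10, adjusted p = 0.00252). Ctsa, the serine carboxypeptidase that also protects β-galactosidase and neuraminidase, was at 182, 116 and 124 FPKM in the libraries labelled LV-Klotho, 168, 135 and 135 FPKM in LV-Vector, 177, 109.9 and 127 FPKM in calcification and 203, 115 and 140.4 FPKM in control (0.54 ± 0.08, adjusted p = 0.00452). Ctsz, a carboxypeptidase, was at 564, 410.1 and 453 FPKM in the libraries labelled LV-Klotho, 650.4, 562 and 597 FPKM in LV-Vector, 574, 414 and 513 FPKM in calcification and 591, 384 and 429.8 FPKM in control (0.35 ± 0.09, adjusted p = 0.0442). Replicate 1 was highest in each group here too, by less in LV-Vector. Ctsd was not called (0.22 ± 0.10, adjusted p = 0.334), at 908, 804 and 809 FPKM in the libraries labelled LV-Klotho, 982, 950.4 and 813 FPKM in LV-Vector, 825, 697 and 797 FPKM in calcification and 952, 702 and 749.7 FPKM in control.

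Hydrolases of sugar chains and lipids followed. Man2b1, the lysosomal α-mannosidase, was at 29.8, 19.8 and 17.3 FPKM in the libraries labelled LV-Klotho, 23.5, 22.9 and 20.1 FPKM in LV-Vector, 31.9, 19.8 and 20.1 FPKM in calcification and 29.0, 20.1 and 18.6 FPKM in control (0.50 ± 0.10, adjusted p = 0.0146). Hexa (0.43, adjusted p = 0.0301) and Lipa (0.45, adjusted p = 0.0438) were the other hydrolases called, with the levels given above. Not called were Glb1, the β-galactosidase (0.43, adjusted p = 0.109), Neu1, the neuraminidase (0.26), the cysteine protease Ctsl (0.25) and Gusb, the β-glucuronidase (0.16). Over the 12 libraries Glb1 ranged from 31.2 to 64.2 FPKM, Neu1 from 14.6 to 25.1 FPKM, Ctsl from 209.9 to 326 FPKM and Gusb from 25.6 to 41.5 FPKM.

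**Figure D5:**
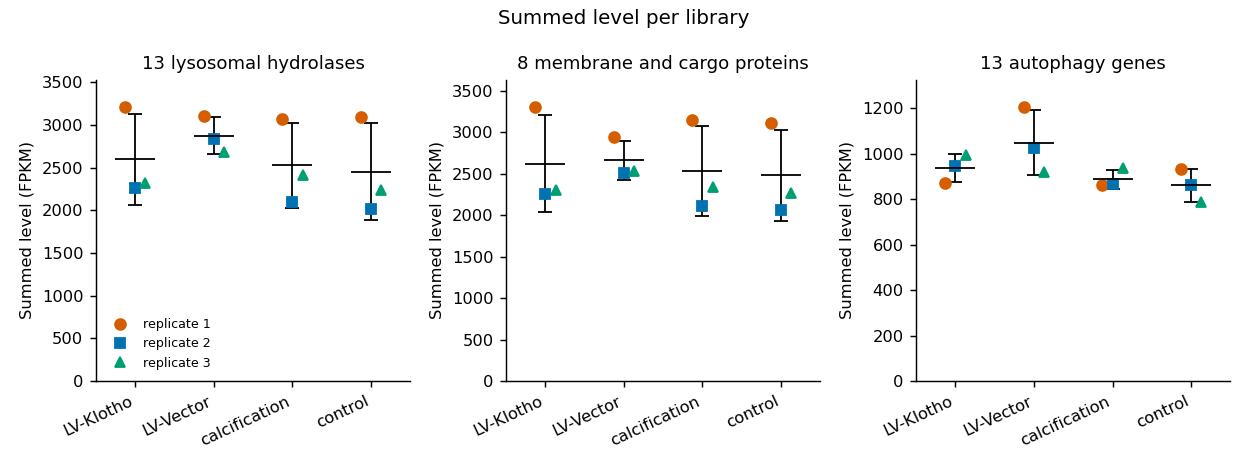
Summed level (FPKM, axis from 0) of the 13 hydrolases, the 8 membrane and cargo proteins and the 13 autophagy genes in each library of the 4 groups, with group mean and SD (n = 3). For the hydrolases and the membrane and cargo proteins replicate 1 is the highest library of every group, and for the autophagy genes it is so in LV-Vector and control.

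Summed over the 13 hydrolases, the replicates numbered 1 held 3073 to 3210 FPKM and the others 2022 to 2836 FPKM. The sums over the 8 membrane and cargo proteins were 2938 to 3304 FPKM and 2062 to 2536 FPKM, again without overlap. The autophagy sums overlapped, at 861.6 to 1206 FPKM and 788.6 to 1025 FPKM. By treatment, the hydrolases summed to 2598 ± 530.9 FPKM in the libraries labelled LV-Klotho, 2875 ± 215.5 FPKM in LV-Vector, 2528 ± 497.4 FPKM in calcification and 2452 ± 569.1 FPKM in control (SD, n = 3), which all overlap.

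Of the membrane and cargo proteins, Psap, Lamp1, Grn and Lamp2 were called. Psap was at 1096, 712 and 745 FPKM in the libraries labelled LV-Klotho, 1031, 799.6 and 839 FPKM in LV-Vector, 1104, 687 and 769 FPKM in calcification and 1026, 634 and 702 FPKM in control (0.54 ± 0.09, adjusted p = 0.00777). Lamp1 was at 1090.0, 734 and 663 FPKM in the libraries labelled LV-Klotho, 791, 738 and 731 FPKM in LV-Vector, 1009, 654 and 634 FPKM in calcification and 973, 726 and 748 FPKM in control (0.45 ± 0.11, adjusted p = 0.0473). Both had the 4 replicates numbered 1 above all 8 others, and in Lamp1 the gap was smallest in LV-Vector. Grn, whose product progranulin is cut into granulins in the lysosome, was at 439, 300.2 and 318 FPKM in the libraries labelled LV-Klotho, 396, 342 and 357 FPKM in LV-Vector, 447, 300.5 and 341 FPKM in calcification and 389.6, 262 and 305 FPKM in control (0.41 ± 0.09, adjusted p = 0.0222). Lamp2 had 0.58 ± 0.11 (adjusted p = 0.0138). Cd63, a tetraspanin of late endosomes, had 0.39 (adjusted p = 0.0521, range 229.5 to 436 FPKM) and Mcoln1, the lysosomal calcium channel, 0.30 (adjusted p = 0.0874, range 7.58 to 12 FPKM).

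Pump subunits were split. Atp6v1b2, the nucleotide-binding B subunit, was at 45.3, 31.3 and 35.7 FPKM in the libraries labelled LV-Klotho, 43.7, 33.4 and 36.4 FPKM in LV-Vector, 41.1, 28.9 and 35.7 FPKM in calcification and 47.6, 33.8 and 37.4 FPKM in control (0.37 ± 0.07, adjusted p = 0.00724), with replicate 1 above all 8 others. Atp6v1h, a regulatory subunit, had the same separation (16.2 to 20.6 FPKM, against 13.2 to 15.1 FPKM) but was not called (0.27, adjusted p = 0.101). Atp6v0d1, of the membrane sector, was at 147, 137 and 158 FPKM in the libraries labelled LV-Klotho, 190.1, 130.1 and 130.5 FPKM in LV-Vector, 122, 106 and 142 FPKM in calcification and 129.9, 105 and 119 FPKM in control (0.19, adjusted p = 0.275). Atp6v1a had 0.06 (adjusted p = 0.710). Tfeb (0.29, adjusted p = 0.176) and Tfe3 (0.16, adjusted p = 0.384) were not called.

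Of the autophagy genes, Atg7, the enzyme that activates LC3 and GABARAP for conjugation, was called. It was at 12, 10.1 and 12 FPKM in the libraries labelled LV-Klotho, 15.3, 9.44 and 10.5 FPKM in LV-Vector, 13.1, 9.07 and 10.9 FPKM in calcification and 13.5, 9.86 and 10.3 FPKM in control (0.36 ± 0.08, adjusted p = 0.0326, and 0.34, adjusted p = 0.0534, after the GC and length removal). Map1lc3b, the LC3 gene most used as an autophagosome marker, was at 76.0, 64.7 and 66.2 FPKM in the libraries labelled LV-Klotho, 83.2, 64.1 and 54.8 FPKM in LV-Vector, 68.9, 46.1 and 60.7 FPKM in calcification and 74.7, 58.8 and 60.0 FPKM in control. Its replicate 1 was highest in every group, but it was not called (0.35 ± 0.09, adjusted p = 0.0670). Sqstm1 had -0.03, Becn1 -0.20 (adjusted p = 0.133) and Map1lc3a -0.24 (adjusted p = 0.596).

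Replicate 1 was the highest library in all 4 groups for 17 of the 40 members, where 6.67% of all genes tested were, and lay above all 8 others for 10, where 2.38% did. By role the 17 were 9 hydrolases, 4 membrane and cargo proteins, 2 pump subunits, Tfeb and Map1lc3b. Other genes of the organelle were read from the pathway lists by the test between replicate numbers. Of all genes tested, 6.28% were called higher in replicate 1 and 6.13% lower. Of 34 other hydrolases and activators, 10 were higher and 1 was lower, and 6 of 15 other membrane proteins were higher. Among the hydrolases with the smallest p were Ctss (log2 1.78), the cathepsin of antigen-presenting cells, Naglu (0.75) and Dpp7 (0.68). Of the membrane proteins these were Scarb2, the receptor that carries β-glucocerebrosidase to lysosomes (0.77), Laptm4b (0.45), Cln3 (0.47) and the cystine exporter Ctns (0.57). Of 38 other autophagy genes, Plekhm1 (0.53), Atg101 (0.37) and Atg13 (0.34) were higher and Tax1bp1 (-0.23) was lower. Of 18 genes of lysosomal signalling and TFEB control, 1 was higher (Flcn, 0.41), and of 6 sorting genes 1 was higher (Nagpa, 0.30) and 1 lower (Sort1, -0.49). None of 13 other pump subunits was called (limma, 1 at an unadjusted p under 0.05).

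Markers of several cell types moved with the replicate number beside these genes. The shares of all genes tested were again 6.28% called higher in replicate 1 and 6.13% lower. All 9 smooth muscle markers tested were lower in replicate 1, among them Myh11, smooth muscle myosin (1.32 to 2.58 FPKM, against 12.2 to 40.8 FPKM in the others), and both endothelial markers tested were lower. Of 9 macrophage markers tested 7 were higher, and the 14 macrophage markers summed to 102.8 to 166.8 FPKM in the replicates numbered 1, against 35.02 to 61.61 FPKM in the others. On the macrophage list, Lyz2 was at 56 to 88.7 FPKM, against 16.1 to 37.3 FPKM. The receptor gene Csf1r was not called (log2 0.14, adjusted p = 0.545 by limma F test), at 5.32 to 8.46 FPKM, against 3.19 to 8.04 FPKM. Mertk was not called either, and its difference was negative (-0.39, adjusted p = 0.248). Below the floor for testing, Adgre1 was at 0.817 to 1.69 FPKM, against 0.0617 to 0.427 FPKM, and Ptprc reached no more than 0.0631 FPKM. Of 8 adventitial fibroblast markers tested 5 were higher, among them Dcn (27.5 to 58.8 FPKM, against 3.95 to 16.6 FPKM), and the list summed to 1042 to 1860 FPKM, against 738 to 1264 FPKM. The part of these markers' cells in the lysosomal differences was not tested, and in such bulk samples fewer cells of a type and less RNA per cell cannot be told apart.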

How the data were processed

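RNA of 12 libraries in 4 groups of 3 was used. The deposited FPKM values were made by the authors from fragment counts divided by gene length and library size, as judged from the values, since the header names no unit. They were multiplied by GENCODE M21 exon length and by a depth per library, chosen to give the most whole values. Of the values under 100 fragments, 98.07% to 98.35% then became whole (within 0.05). By chance 10% would, a figure that takes no account of that choice of depth. The submitters' processing notes list STAR 2.4, CASAVA 1.8.2 and DESeq2 3.12, and the builds GRCm38 and GRCm39, without roles. No source here gives the strand setting, so overlapping genes cannot be told apart. limma 3.58.1 (R 4.3.3) with a mean-variance trend was run on log2(FPKM + 1) for the 10758 genes averaging 1 FPKM or more, all libraries in 1 fit, with Benjamini-Hochberg adjustment over those genes; the count test named first in the plan was not used, since the table holds no counts. On simulated data for calcification against control and for LV-Klotho against LV-Vector, the fit recovered 75% of 2-fold changes. It recovered 96% and 95% of 4-fold changes, with 13 and 7 false calls. Smaller changes were not simulated, so a count of 0 members does not show that small differences were absent. Differences on this scale understate the change of low genes. Members and lists were chosen with earlier results of these data known. Members called in any comparison, and in each role the 2 most abundant and the smallest p per comparison, and 7 fixed genes are given library by library. Ulk1 was added after its values were seen, and the rest are given by ranges or group means. A result that this rule covers is not reported here.

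Replicate numbers were taken from the labels. Libraries of the same number deviated in the same direction from their group means for LV-Klotho and calcification (correlations across genes 0.573 to 0.731), LV-Klotho and control (0.242 to 0.571), LV-Vector and control (0.403 to 0.537) and calcification and control (0.199 to 0.509), so the replicate number served as a block there. Alternatives covered the pseudocount, filters, scaling, the block, GC content and length, limma-voom, and fewer libraries.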

Additional observations from a re-analysis of the deposited data

How the results depend on the processing

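No member was called in any treatment comparison under other pseudocounts, filters or scalings, with limma-voom, or with removal of GC and length trends alone. With the replicate number as a block, 1 member was called in calcification against control, 2 in all calcification media against control (Ctsk and Hexa) and 2 over the 4 groups (Ctsk and Atp6v1a, adjusted p = 0.0166 and 0.0337). With the block and the GC and length removal together, 2 were called in all calcification media against control (Ctsk and Ulk1) and 2 over the 4 groups (Ctsk and Ulk1, adjusted p = 0.0469 and 0.0488), while Ctsk in calcification against control had adjusted p = 0.0537. In replicates 2 and 3 only, 3 members were called in all calcification media against control and 0 in the other treatment comparisons. The share of all genes called is not given for this setting, nor for the block with GC and length removal. These counts therefore cannot be set against all genes. For LV-Klotho and LV-Vector, libraries of the same number had correlations of 0.294, 0.522 and 0.006 in replicates 1, 2 and 3. For LV-Vector and calcification these were 0.314, 0.497 and -0.063, so replicate 3 did not pair. The block called no member in these comparisons. The block changed no other call of a member; its effect on other genes of the pathway is given above for 2 comparisons, and over the 4 groups it added Acp5, Ids, Bnip3, Bnip3l, Rb1cc1, Tax1bp1, Ulk2, Fnip1 and Nagpa.

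For the replicate number, 14 members were called, against 6 with no filter on low values and 1 in replicates 2 and 3 only. Leaving out 1 library at a time gave 6 to 16, as given above by library. Without the LV-Vector libraries, an alternative chosen after seeing the data like that of replicates 2 and 3 for this result, 17 were called, 13 of them shared. For these fits the share of all genes called is not given. The median of the hydrolases stayed between 0.37 and 0.57 in the other fits of that result. Medians of the hydrolases between treatments changed sign with the setting in each comparison. Limiting the fit to the libraries compared leaves all calcification media against control as it is and was not run there. Of 130 pairs of a named member and a treatment comparison, 48 kept their sign under every alternative.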
